A study of Mus musculus with 8 samples.

Results

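The p53 pathway was followed through 10 genes, the transcription factor gene Trp53 and 9 of its direct targets. The genes were chosen by name, with earlier results of these data known, so counts set beside all genes are descriptions only. Each gene was read from the probe sets annotated to its symbol alone. Of the 10, 9 had such a probe set (18 probe sets of 45101 on the array, and 9 of the 18193 genes tested), and Trp53 itself was not analysed here. The cells were male embryonic stem (ES) cells of the mouse, strain 129S4/Svjae, kept in medium with the cytokine LIF. RNA of 8 samples was read on 1 array each: 3 with a short hairpin against Jmjd2b, 2 with a hairpin against Jmjd2c and 3 with a control hairpin against GFP. Cells of all 3 groups, controls included, had been infected with lentivirus, selected with puromycin and passaged before RNA was taken. The labels name no second hairpin for either gene and do not say whether arrays of a group came from separate infections, so the spread behind each p-value may be technical only. Jmjd2b and Jmjd2c (Kdm4b and Kdm4c on the array) encode histone demethylases of the KDM4 family, and the title of the series gives their role in the identity of these cells as its subject.

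The p53 protein binds DNA as a tetramer and switches on genes that halt the cell cycle, repair DNA or start cell death. Its level is held low by Mdm2, a ubiquitin ligase that marks p53 for destruction and is itself a p53 target, which closes a feedback loop. ES cells carry much p53 protein and are known for an unusual checkpoint after DNA damage. The pathway can also act in their differentiation, where p53 represses the pluripotency gene Nanog.

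The promoters of 6 of the 9 measured members were in the RefSeq promoter table for GRCm38.p6, which gives 250 bases before to 50 after each start site. Perp, Trp53inp1 and Zmat3 have no entry. The windows were searched for the p53 consensus response element, a run of 2 adjacent 10-base units (decamers) that each read the same on both strands, so that 1 search covers both. The C and the G of each decamer core had to match, and up to 3 other mismatches were allowed. An element with at most 1 mismatch lies in 22 of 32851 windows of the table (0.0670%), one with at most 3 in 453 (1.38%), and a single perfect decamer in 8.36%. The Ccng1 window is shown because it holds the best match among the members, an element with 1 mismatch that begins 195 bases before the start site. The second Sesn1 window is shown because Sesn1 was the member that fell, and it holds an element with 3 mismatches that begins 173 bases before its start. The Mdm2 window holds 1 perfect decamer, 186 bases before the start. The windows of Plk2 and Phlda3, members that rose, hold neither motif and stand for comparison. All but the Plk2 window were picked after the values were seen. Capitals mark the element (Ccng1, Sesn1) or the decamer (Mdm2). The windows lie at chr11:40755237-40755536 on the minus strand (Ccng1), chr10:41887189-41887488 on the plus strand (Sesn1), chr10:117710709-117711008 on the minus strand (Mdm2), chr13:110394794-110395093 on the plus strand (Plk2) and chr1:135765835-135766134 on the plus strand (Phlda3), and each is printed 5′ to 3′ on its gene's strand.
Ccng1: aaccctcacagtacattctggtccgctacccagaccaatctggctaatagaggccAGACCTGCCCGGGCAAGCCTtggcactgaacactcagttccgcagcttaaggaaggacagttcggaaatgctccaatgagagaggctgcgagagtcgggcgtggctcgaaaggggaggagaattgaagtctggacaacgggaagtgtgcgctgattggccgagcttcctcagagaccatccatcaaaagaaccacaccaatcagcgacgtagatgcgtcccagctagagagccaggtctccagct
Sesn1: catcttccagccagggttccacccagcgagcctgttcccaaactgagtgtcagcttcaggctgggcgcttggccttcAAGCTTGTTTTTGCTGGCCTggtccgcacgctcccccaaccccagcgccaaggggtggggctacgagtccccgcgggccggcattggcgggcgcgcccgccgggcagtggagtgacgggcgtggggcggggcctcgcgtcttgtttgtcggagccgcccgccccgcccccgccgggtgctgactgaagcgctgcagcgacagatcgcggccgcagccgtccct
Mdm2: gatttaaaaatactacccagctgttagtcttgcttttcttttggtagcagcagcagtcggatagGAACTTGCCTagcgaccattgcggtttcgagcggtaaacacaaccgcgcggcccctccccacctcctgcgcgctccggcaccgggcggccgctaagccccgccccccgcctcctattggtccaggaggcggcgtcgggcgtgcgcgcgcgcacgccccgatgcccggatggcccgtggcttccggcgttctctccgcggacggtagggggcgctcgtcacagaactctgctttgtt
Plk2: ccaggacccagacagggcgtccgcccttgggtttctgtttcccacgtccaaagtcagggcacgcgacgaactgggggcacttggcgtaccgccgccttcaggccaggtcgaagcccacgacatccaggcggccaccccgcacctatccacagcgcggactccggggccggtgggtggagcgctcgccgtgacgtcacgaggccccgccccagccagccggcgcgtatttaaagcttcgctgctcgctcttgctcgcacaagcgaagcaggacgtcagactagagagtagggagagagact
Phlda3: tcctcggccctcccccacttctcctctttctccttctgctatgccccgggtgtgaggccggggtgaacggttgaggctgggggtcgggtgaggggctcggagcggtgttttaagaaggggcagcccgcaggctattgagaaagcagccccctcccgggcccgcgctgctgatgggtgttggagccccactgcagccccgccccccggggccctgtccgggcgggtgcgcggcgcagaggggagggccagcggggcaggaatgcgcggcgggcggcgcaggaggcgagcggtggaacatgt
A match is a description of these letters only. The other Sesn1 window held neither motif, and the Ei24 window held 1 perfect decamer that begins 10 bases before the start.

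Values below are deposited intensities on a linear scale. Changes are differences of log2(intensity + 16), which understates the change of dim genes, tested over all genes with limma and adjusted by Benjamini-Hochberg, and a gene was called at an adjusted p under 0.05. The brightest probe set stood for each gene, and for all 9 measured members it lay above the median level of genes. Each hairpin lowered its own target. Kdm4b stood at 10.8%, 6.27% and 3.64% of the mean control intensity on the 3 Jmjd2b knockdown arrays, and at 52.3% and 60.9% on the 2 Jmjd2c knockdown arrays. Kdm4c stood at 11.1% and 36.7% on the Jmjd2c knockdown arrays, and at 58.7%, 62.5% and 50.8% on the Jmjd2b knockdown arrays. Neither gene was called in the knockdown of the other (limma, adjusted p = 0.102 for Kdm4c and 0.178 for Kdm4b). Kdm4a averaged 592 in the Jmjd2b knockdown and 1043 in the controls and was called lower (log2 change -0.80). In the Jmjd2c knockdown Kdm4a (-0.22) was not called. On 3 arrays (control arrays 1 and 2 and Jmjd2b knockdown array 2) 412 to 455 values were exactly 1 and 0 to 2 lay below it, whereas 172 to 241 lay below 1 on each of the other 5. The first 3 are called floored at 1 here. Exactly equal values parted the 8 arrays into 3 sets: those 3 arrays, control array 3 with Jmjd2b knockdown array 1, and Jmjd2b knockdown array 3 with both Jmjd2c knockdown arrays (0.412% to 0.621% equal values within a set and at most 0.0798% across sets). Results were recomputed with either grouping as a block. All 10 ES cell markers lay above the array median on every array, with summed intensities of 50785 to 54764 in the Jmjd2b knockdown and 53109 to 53252 in the Jmjd2c knockdown, against 60826.5 to 61571 in the controls. Of 9 measured fibroblast markers, which would show feeder cells, 3 or 4 lay above the array median, and their summed intensity was 421 to 445 in the Jmjd2b knockdown and 434 to 484 in the Jmjd2c knockdown, against 705 to 781 in the controls. None of them averaged 0 in any group, and the dimmest included Postn, at 12.2 in the Jmjd2b knockdown, 10.2 in the Jmjd2c knockdown and 11.9 in the controls. The actin ratio of 3′ over 5′ signal, which falls as RNA is better preserved, was 1.31 to 1.42 in the Jmjd2b knockdown and 1.43 to 1.48 in the Jmjd2c knockdown, against 1.45 to 1.63 in the controls. Both marker sums were thus lower in both knockdowns, and the ratio was lower in the Jmjd2b knockdown, but single markers went both ways. Of the ES cell markers 2 rose (Gdf3 by 0.59 and Lin28a by 0.87 on the log2 scale) and 6 fell in the Jmjd2b knockdown. The 6 were Fgf4 (-1.86), Nanog (-0.67), Zfp42 (-0.54), Dppa5a (-0.33), Sox2 (-0.25) and Tdgf1 (-0.16). Of the same markers 1 rose (Gdf3) and 3 fell (Fgf4, Zfp42 and Tdgf1) in the Jmjd2c knockdown, where Nanog (-0.41) was not called. Of the fibroblast markers Col1a1 rose in the Jmjd2b knockdown (1.34), where Pdgfrb (-1.36) and Thy1 (-1.33) fell, and 0 rose and 3 fell in the Jmjd2c knockdown. The part of these markers and of the ratio in the results was not tested. In bulk RNA, a change in the share of cells that use a gene and a change in RNA per cell cannot be told apart.

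In the Jmjd2b knockdown 4 of the 9 measured members rose, namely Perp, Plk2, Phlda3 and Ccng1, and 1, Sesn1, fell. Of all genes tested, 24.4% were called, 11.5% up and 12.9% down. With only genes above the median level in the fit, where all 9 lie, the same 5 members were called. In that fit 3722 genes were called, against 4441 in the main fit. The share called was thus higher at the members' level than over all genes. The median change of the 9 was 0.31, against -0.029 over all genes. The 3 knockdown arrays lay wholly above the 3 control arrays for 6 members, as they did for 20.9% of all genes, and wholly below for 1, as they did for 23.8%, which makes 44.8% in either direction. At an unadjusted p under 0.05 there were 6 members, these 5 and Trp53inp1, where 35.4% of all genes passed it.

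Perp (probe set 1416271_at), a tetraspan membrane protein of desmosomes that acts in p53-dependent cell death, had intensities of 1161, 1514 and 1183 in the Jmjd2b knockdown, against 286, 341 and 293 in the controls. Every knockdown array was above every control. The log2 change was 2.01 ± 0.26 (SE), or 4.01-fold on that scale (limma, adjusted p = 6.47e-04). Plk2 (1427005_at), a polo-like kinase that p53 induces after stress, had 629.6, 642 and 898 in the Jmjd2b knockdown, against 284, 306 and 296 in the controls. Again the groups did not overlap, and the change was 1.23 ± 0.15 (SE; limma, adjusted p = 4.76e-04). With the mean of both Plk2 probe sets the change was 0.75 and was still called. The second, dim one averaged 8.82 ± 0.995 in the Jmjd2b knockdown and 4.66 ± 0.535 in the controls (SD, n = 3 each).

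Phlda3 (1449002_at) encodes a pleckstrin homology domain protein that competes with the kinase Akt for membrane lipids and so restrains it. It had 2136, 2276 and 2195 in the Jmjd2b knockdown, against 1195, 1072 and 1026 in the controls. The 3 knockdown arrays were close to each other and above all controls, with a change of 0.996 ± 0.21 (SE; limma, adjusted p = 0.00771). Ccng1 (1420827_a_at) encodes cyclin G1, which brings protein phosphatase 2A to Mdm2. It had 5523, 6019 and 6333 in the Jmjd2b knockdown, against 4295, 4159.6 and 3772 in the controls. The groups did not overlap and the change was 0.55 ± 0.14 (SE; limma, adjusted p = 0.0186). Both other Ccng1 probe sets had higher means too, 3331 ± 219.8 and 1720.1 ± 158 in the Jmjd2b knockdown, against 2247 ± 93.7 and 919 ± 66.0 in the controls (SD, n = 3 each).

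Sesn1 (1438931_s_at) encodes a sestrin, a stress protein that restrains the growth kinase complex mTORC1, and it was the only measured member called lower. It had 485, 458 and 428 in the Jmjd2b knockdown, against 835, 619 and 696 in the controls. All knockdown arrays were below all controls, and the change was -0.62 ± 0.15 (SE; limma, adjusted p = 0.0150). The ID of this probe set marks possible detection of several transcripts. The brightest Sesn1 probe set without that mark (1454699_at) averaged 151 ± 26.7 in the Jmjd2b knockdown and 236 ± 25.6 in the controls (SD, n = 3 each). Put in place of the first, it changed by -0.60 and was called as well (limma, adjusted p = 0.0321).

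The remaining 4 measured members were not called in the Jmjd2b knockdown, but Zmat3 and Trp53inp1 were called in other fits. Zmat3 passed with only the 2 groups in the fit (limma, adjusted p = 0.0441) or without either Jmjd2c knockdown array (0.0437 and 0.0447), with the same change, and Trp53inp1 without control array 2 (0.28; adjusted p = 0.0349). Mdm2 (1423605_a_at) had 1273, 1187 and 1594 in the Jmjd2b knockdown, against 1493, 1230.3 and 1279.9 in the controls. The groups overlapped, and the change was 0.012 with a 95% interval of -0.28 to 0.31 (limma, adjusted p = 0.964). Its second probe set averaged 542 ± 119 in the Jmjd2b knockdown and 493 ± 45.0 in the controls (SD, n = 3 each). Trp53inp1 (1416926_at), a p53-induced nuclear protein of cell death and autophagy, had 4046, 4069 and 4316 in the Jmjd2b knockdown, against 3275, 3918 and 3524 in the controls. Its arrays did not overlap, yet its change of 0.22, with a 95% interval of 0.039 to 0.39, missed the threshold (limma, adjusted p = 0.0772). Zmat3 (1449353_at), a zinc finger protein that binds RNA, had 2444, 2432 and 2864 in the Jmjd2b knockdown, against 1820.3, 2339.5 and 2069 in the controls. Here too the groups did not overlap, with a change of 0.31 (95% interval -0.029 to 0.66; limma, adjusted p = 0.178). Ei24 (1416555_at), a membrane protein of the endoplasmic reticulum linked to cell death and autophagy, had 2297, 2219 and 2561 in the Jmjd2b knockdown, against 2455, 2425 and 2384 in the controls. The groups overlapped and the change was -0.040 (95% interval -0.23 to 0.15; limma, adjusted p = 0.780).

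**Figure D1:**
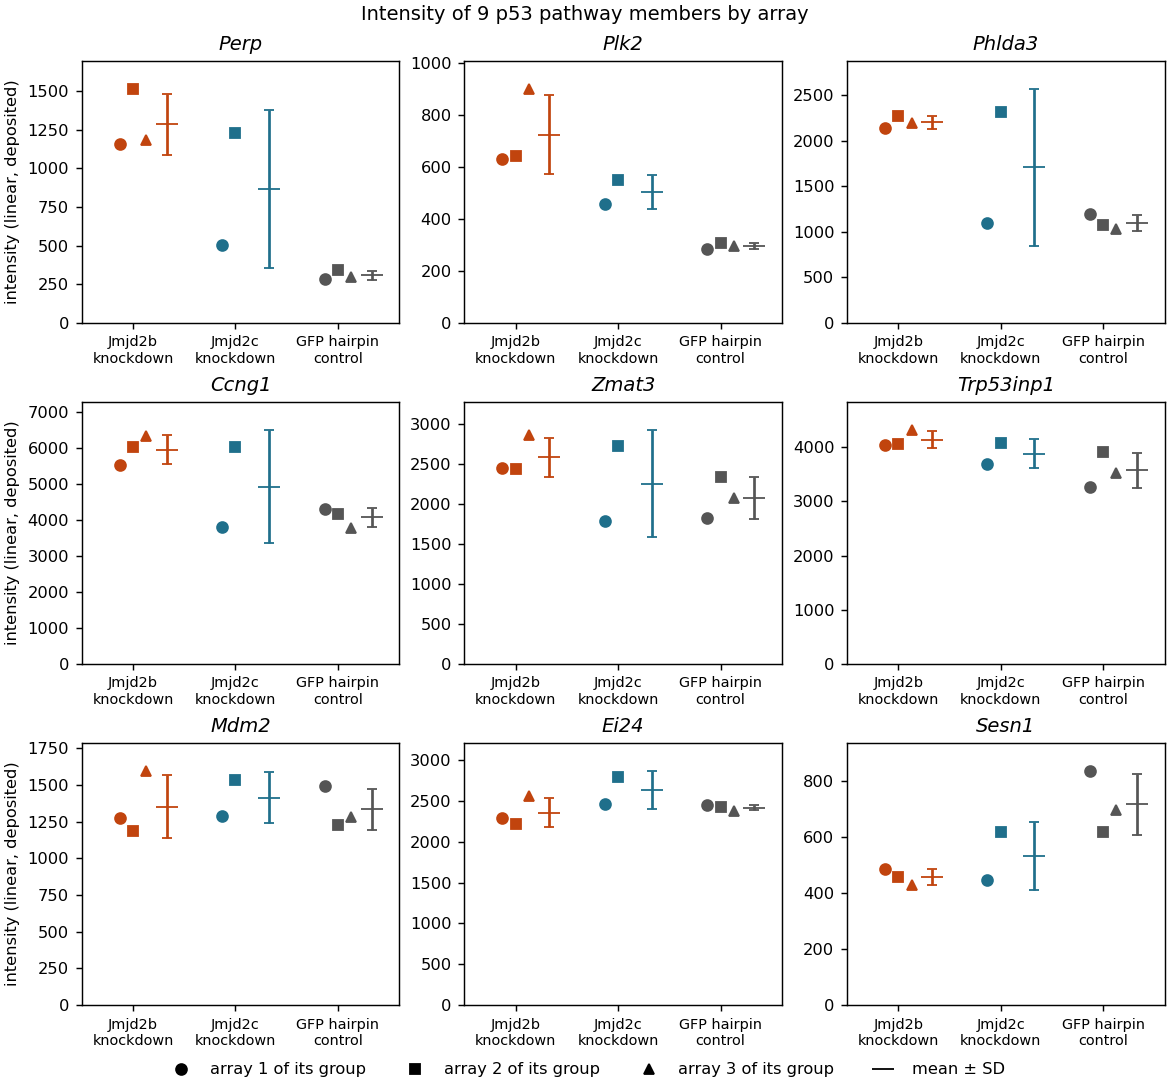
Deposited intensity (linear, axis from 0) of the 9 measured members on each array of the Jmjd2b knockdown, the Jmjd2c knockdown and the GFP hairpin control. Symbols are arrays, shaped by their number in the group, and the cross-bars give mean ± SD. The Jmjd2b arrays lie above the controls for Perp, Plk2, Phlda3, Ccng1, Zmat3 and Trp53inp1 and below them for Sesn1. The 2 Jmjd2c arrays lie far apart for Perp (506 and 1228) and Phlda3 (1099 and 2315).

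Perp, Plk2 and Phlda3 were called whichever of the 8 arrays was left out, with changes of 1.88 to 2.08 for Perp, 1.07 to 1.32 for Plk2 and 0.95 to 1.06 for Phlda3. The Jmjd2c knockdown arrays enter this comparison only through the spread, so leaving either out cannot alter the changes. The other calls depended on single arrays. Ccng1 was not called without control array 3 (0.49), Jmjd2b knockdown array 2 (0.54) or Jmjd2b knockdown array 3 (0.50). Sesn1 was not called when any 1 of those 3 was left out (-0.64, -0.63 and -0.58), nor without control array 1 (-0.51). Without control array 3, Jmjd2b knockdown array 2 or Jmjd2b knockdown array 3 the count of members called was therefore 3. Among the arrays floored at 1 (1 knockdown array and 2 controls) the changes were 2.22 for Perp, 1.08 for Plk2, 0.997 for Phlda3, 0.51 for Ccng1 and -0.63 for Sesn1, the first 3 of them called, in a fit of 1 knockdown array whose spread comes from the 2 controls alone. Among the other arrays (2 knockdown arrays and 1 control) they were 1.94, 1.30, 1.07, 0.65 and -0.59 in the same order, and 0 members were called among 99 genes in all (limma). With the 3 sets of equal values as a block Perp (2.09) and Plk2 (1.07) were called, while Phlda3 (1.02; limma, adjusted p = 0.0546), Ccng1 (0.53; adjusted p = 0.0940) and Sesn1 (-0.58; adjusted p = 0.0973) were not.

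In the Jmjd2c knockdown 2 of the 9 measured members rose, Perp and Plk2, and 0 fell. Of all genes tested, 9.53% were called, 4.28% up and 5.25% down. With only genes above the median level in the fit, where all 9 lie, the same 2 members were called. In that fit 1819 genes were called, against 1733 in the main fit. The share called was thus higher at the members' level than over all genes. The median change of the 9 was 0.12, against -0.020 over all genes, and 4 members had an unadjusted p under 0.05, as did 23.9% of all genes. Both knockdown arrays lay above all controls for 3 members, as they did for 17.4% of all genes, and below them for 1, as they did for 21.2%, which makes 38.6% in either direction. This comparison and the one before it share the 3 control arrays.

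Perp had 506 and 1228 in the Jmjd2c knockdown, against 286, 341 and 293 in the controls. Both knockdown arrays were above every control, though they differed from each other, and the change was 1.32 ± 0.30 (SE; limma, adjusted p = 0.0233). Plk2 had 457 and 549.9 in the Jmjd2c knockdown, against 284, 306 and 296 in the controls. Here the knockdown arrays were close together and the groups did not overlap, with a change of 0.73 ± 0.17 (SE; limma, adjusted p = 0.0273). Sesn1 had 446 and 618.6 in the Jmjd2c knockdown, against 835, 619.4 and 696 in the controls, the higher knockdown array just below the lowest control. Its change of -0.43 did not pass (limma, adjusted p = 0.161).

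Phlda3 had 1099 and 2315 in the Jmjd2c knockdown, against 1195, 1072 and 1026 in the controls. The first knockdown array lay among the controls and the second above all of them, and the change of 0.54 was not called (limma, adjusted p = 0.208). Ccng1 had 3812 and 6037 in the Jmjd2c knockdown, against 4295, 4159.6 and 3772 in the controls, which is the same arrangement, with a change of 0.24 (limma, adjusted p = 0.418). Zmat3 had 1780.2 and 2725 in the Jmjd2c knockdown, against 1820.3, 2339.5 and 2069 in the controls, so that the 2 knockdown arrays lay on opposite sides of the controls (change 0.092; limma, adjusted p = 0.806). Mdm2 had 1290.5 and 1536 in the Jmjd2c knockdown, against 1493, 1230.3 and 1279.9 in the controls, 1 knockdown array within the range of the controls and 1 above it (change 0.082; limma, adjusted p = 0.797). Trp53inp1 had 3694 and 4074 in the Jmjd2c knockdown, with a change of 0.12 (limma, adjusted p = 0.462). Ei24 had 2467 and 2797 in the Jmjd2c knockdown, the first just above the highest control and the second well above it, with a change of 0.12 (limma, adjusted p = 0.503).

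**Figure D2:**
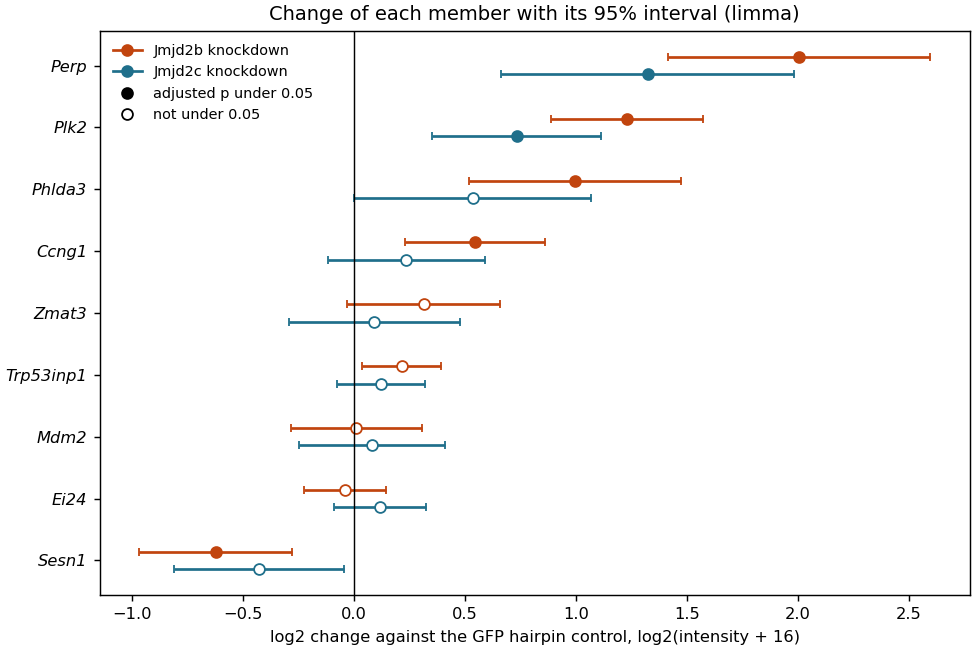
Change of each measured member against the GFP hairpin control on the log2(intensity + 16) scale, in the Jmjd2b knockdown (upper of each pair) and the Jmjd2c knockdown (lower), with 95% intervals from limma. Filled points had an adjusted p under 0.05: 5 members in the Jmjd2b knockdown (Perp at 2.01 to Sesn1 at -0.62) and 2 in the Jmjd2c knockdown (Perp at 1.32 and Plk2 at 0.73).

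The 2 Jmjd2c knockdown arrays stood apart from each other over the whole set. All 9 measured members were higher on array 2 than on array 1, by a median of 0.46 on the log2 scale, while 52.2% of all genes were higher on array 2, by a median of 0.019. The differences were 1.25 for Perp, 1.06 for Phlda3, 0.66 for Ccng1, 0.61 for Zmat3 and 0.46 for Sesn1. They were smaller for Plk2 (0.26), Mdm2 (0.25), Ei24 (0.18) and Trp53inp1 (0.14). Array 1 was the one with less of the targeted transcript, with Kdm4c at 142 on array 1 and 469 on array 2. Set against the mean of the controls, array 2 was at 1.07 for Phlda3 and 0.57 for Ccng1, and array 1 at 0.0043 and -0.094. Pmaip1, a p53 target outside the 9 that encodes a death-promoting BH3-only protein, had 156 and 982 in the Jmjd2c knockdown, against 1078, 501 and 428 in the controls, and so varied within the controls as well.

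**Figure D3:**
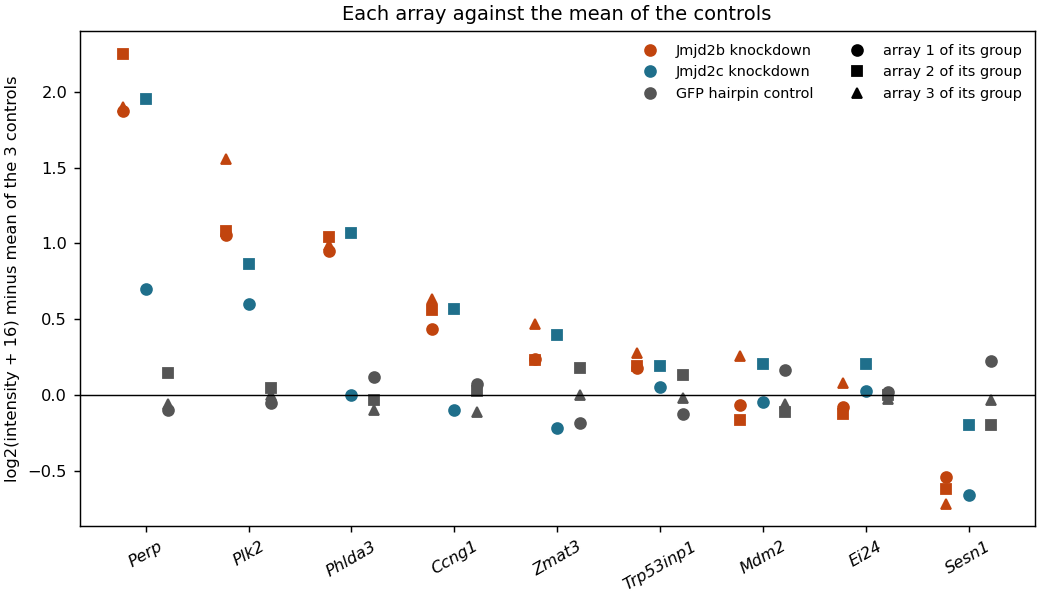
Each array's log2(intensity + 16) minus the mean of the 3 controls, for the 9 measured members, with the group as colour and the array number as symbol. For Phlda3 the Jmjd2c arrays 1 and 2 lie at 0.0043 and 1.07, and all 9 members are higher on array 2 than on array 1 of that group.

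The calls in the Jmjd2c knockdown depended on these arrays. Without array 1 the changes were 1.95 for Perp, 0.86 for Plk2, 1.07 for Phlda3, 0.57 for Ccng1 and -0.20 for Sesn1. Without array 2 they were 0.70, 0.60, 0.0043, -0.094 and -0.66 in the same order. Which members were called differed between these fits, and the calls over all genes moved as well. The lone array is then assumed to vary like the other groups. Controls mattered as well: 0 members were called without control array 1 (Perp 1.28, Plk2 0.71) or control array 3 (Perp 1.30, Plk2 0.73), and without control array 2 Perp was called and Plk2 (0.76) was not. Of all genes 853, 462 and 1200 were called in these 3 fits, against 1733 in the main fit. With only the 2 groups in the fit the call of Perp was lost (1.32; limma, adjusted p = 0.0686). Plk2 was still called there (0.73; limma, adjusted p = 0.0451), among 874 genes in all. With the array type as a block 0 members were called (Perp 1.47, limma, adjusted p = 0.0552; Plk2 0.66, adjusted p = 0.112). Among the arrays not floored at 1, which hold both knockdown arrays and 1 control, the changes were 1.38 and 0.73, and 0 of all genes were called (limma). With the sets of equal values as a block they were 1.52 and 0.25, again with 0 members called, and since the set with both Jmjd2c arrays holds no control, this fit reaches the controls only through Jmjd2b knockdown arrays.

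Between the knockdowns, Jmjd2c over Jmjd2b, 0 of the 9 measured members were called (limma), against 0.467% of all genes, 0.137% up and 0.33% down, and 2 members had an unadjusted p under 0.05, as did 13.0% of all genes. Over all genes 25 calls were up and 60 down, a split that became 50 and 64 after quantile normalization and 39 and 61 with arrays centred on their median. The Jmjd2c arrays lay wholly above the Jmjd2b arrays for 0 members, against 13.4% of all genes, and wholly below for 1, against 13.7% (27.1% in either direction). Perp averaged 867 ± 511 in the Jmjd2c knockdown (SD, n = 2) and 1286 ± 198 in the Jmjd2b knockdown (SD, n = 3). Its difference was -0.68 with a 95% interval of -1.34 to -0.020 (limma, adjusted p = 0.369). Plk2, the member without overlap, averaged 503 ± 65.9 in the Jmjd2c knockdown (SD, n = 2) and 723 ± 152 in the Jmjd2b knockdown (SD, n = 3). Its difference was -0.50 with an interval of -0.88 to -0.11 (limma, adjusted p = 0.247). Phlda3 differed by -0.46 (interval -0.99 to 0.074), Ccng1 by -0.31 (interval -0.66 to 0.043) and Sesn1 by 0.20 (interval -0.19 to 0.58). These intervals are wide and do not show that the knockdowns acted alike. Without Jmjd2c knockdown array 2, which leaves 1 array in that group, the differences were -1.31 for Perp, -0.99 for Phlda3 and -0.64 for Ccng1. Without array 1 they were -0.055, 0.072 and 0.021.

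Of 9 further probe sets of the members, 9 had a change of the same sign as the brightest one in the Jmjd2b knockdown and 8 in the Jmjd2c knockdown, counting all sizes. For the 5 of them above the median level it was 5 and 5. They read the same genes on the same arrays and are no independent replicates. The exception was a dim Mdm2 probe set, which averaged 11.3 ± 3.87 in the Jmjd2c knockdown (SD, n = 2) and 15.7 ± 2.91 in the controls (SD, n = 3).

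Of 30 other p53 target genes listed for comparison, 27 were measured, and Bax, Gdf15 and Fdxr were not analysed here. In the Jmjd2b knockdown 5 rose and 4 fell, against 11.5% up and 12.9% down over all genes, with a median change of 0.18. Tap1, a peptide transporter of antigen presentation, changed by 1.27 ± 0.17 (SE; 0.33 with the mean of its probe sets, also called), Epha2, an ephrin receptor, by 1.26 ± 0.21, and Gadd45a, a growth arrest gene, by 0.84 ± 0.14. Btg2 (0.80 ± 0.22) and Aen (0.59 ± 0.15), named after their values were seen, rose as well. Ddb2 and Xpc, whose products recognise damaged DNA in nucleotide excision repair, changed by -1.39 ± 0.18 and -0.56 ± 0.12, and Rrm2b, a ribonucleotide reductase subunit used in repair, by -0.81 ± 0.19. Ddit4, an inhibitor of mTORC1 signalling named here after its value was seen, changed by -0.50 ± 0.14. Its groups overlapped, with 3533, 3432 and 5036 in the Jmjd2b knockdown, against 4979.5, 5724 and 6038 in the controls. The Rrm2b call was lost without control array 1 (-0.71), control array 3 (-0.80) or Jmjd2b knockdown array 2 (-0.73). Without control array 3 or Jmjd2b knockdown array 2 the count for the whole list was 5. In those fits 2624 and 2747 of all genes were called, against 4441 in the main fit. The count was lower within either array type, where 1 group holds 1 array, and fewer of all genes were called there too.

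In the Jmjd2c knockdown 1 of the 27 rose and 3 fell, against 4.28% up and 5.25% down over all genes, with a median of -0.0093. Gadd45a had 974 and 1299.9 in the Jmjd2c knockdown, against 508, 591 and 553 in the controls, a rise of 1.01 ± 0.15 (SE; limma, adjusted p = 0.00555). Xpc changed by -0.82 ± 0.14 and Ddb2 by -0.89 ± 0.21. Ddit4 had 2773 and 3298 in the Jmjd2c knockdown, against 4979.5, 5724 and 6038 in the controls, all knockdown arrays below all controls, and changed by -0.88 ± 0.16. The call of Ddb2 was lost without control array 1 (-0.80), control array 3 (-0.82) or Jmjd2c knockdown array 1 (-0.83), and that of Ddit4 without control array 3 (-0.82). The list count was 2 without control array 3, where 462 of all genes were called, against 1733 in the main fit. It also changed without Jmjd2c knockdown array 1, which leaves 1 array in that group, and so did the calls over all genes. With the sets of equal values as a block it was 0, the values being 0.96 for Gadd45a, -0.91 for Xpc, -0.98 for Ddb2 and -1.43 for Ddit4. Between the knockdowns 0 of the 27 were called (limma), against 0.467% of all genes, and 5 had an unadjusted p under 0.05, as did 13.0% of all genes. Without Jmjd2c knockdown array 2 the count of calls changed as well.

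Best known among these targets is Cdkn1a, which encodes the cell cycle inhibitor p21. It had 1511, 1368 and 1282 in the Jmjd2b knockdown, 1002 and 1392 in the Jmjd2c knockdown and 1269.6, 1129 and 1262 in the controls. The Jmjd2b arrays were all above the highest control, and the Jmjd2c arrays lay on either side of the controls. Neither change, 0.18 for Jmjd2b and -0.044 for Jmjd2c, passed (limma, adjusted p of 0.362 and 0.900). Bbc3, which encodes the death-promoting protein Puma, had values of -0.022 and -0.039 (limma, adjusted p of 0.928 and 0.914). For Pmaip1 the values were -0.13 and -0.60 (limma, adjusted p of 0.902 and 0.614), and without Jmjd2c knockdown array 2 the second was -1.87 and was called.

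Among genes that act on p53 and its relatives, 22 listed names stood for 20 genes, all measured. In the Jmjd2b knockdown 2 rose and 3 fell (median -0.012), where 24.4% of all genes were called. The count was lower within either array type, where 1 group holds 1 array, and fewer of all genes were called there too. With only genes above the median level it was 6, and 3722 genes were called, a higher share than over all genes. Chek1 and Atr, kinases of the replication checkpoint, changed by -0.61 ± 0.081 and -0.70 ± 0.15 (SE), and with the mean of its probe sets Chek1 was at -0.35, also called. Crebbp, an acetyltransferase that acts as a p53 coactivator, changed by 0.82 ± 0.12, and Cop1, a ubiquitin ligase, by 0.41 ± 0.091. Mdm4, the relative of Mdm2 that binds and inhibits p53, had 509, 406 and 682 in the Jmjd2b knockdown, against 717, 843 and 1034 in the controls. Its change was -0.70 ± 0.20 (SE; limma, adjusted p = 0.0309), with every knockdown array below every control. The Mdm4 probe set is marked for possible detection of several transcripts, and without such probe sets the value was -0.25 and was not called; with the mean of its probe sets it was -0.20. The call was also lost without control array 2 (-0.71), control array 3 (-0.56), Jmjd2b knockdown array 1 (-0.68) or Jmjd2b knockdown array 2 (-0.53).

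In the Jmjd2c knockdown 0 of these 20 genes were called (limma), with 7 at an unadjusted p under 0.05 and a median of 0.044. Of all genes 9.53% were called and 23.9% had an unadjusted p under 0.05. Mdm4 had 641 and 848 in the Jmjd2c knockdown, with a change of -0.21 (limma, adjusted p = 0.638). The count changed when either Jmjd2c knockdown array was left out, which leaves 1 array in that group. With only genes above the median level 3 were called, after quantile normalization 2, and 1 each with the replicate block, with centred arrays and with the mean of probe sets. Between the knockdowns 0 were called (limma), against 0.467% of all genes, and 2 had an unadjusted p under 0.05, as did 13.0% of all genes. This count, too, changed when either Jmjd2c knockdown array was left out.

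**Figure D4:**
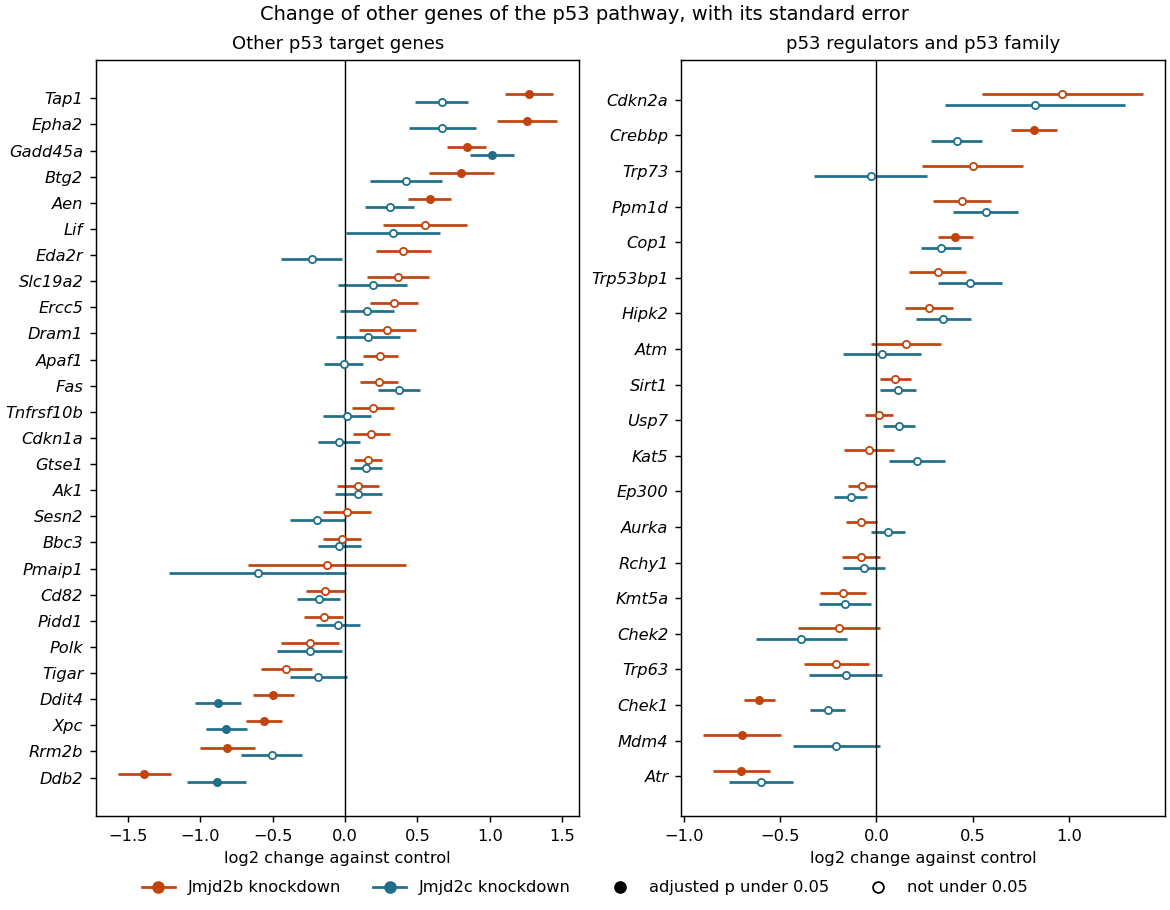
Change against the GFP hairpin control on the log2(intensity + 16) scale, with standard errors, of 27 other p53 target genes (left) and 20 regulators and relatives of p53 (right) in the Jmjd2b knockdown (upper of each pair) and the Jmjd2c knockdown (lower), sorted by the Jmjd2b value. Filled points had an adjusted p under 0.05. Genes of each list lie on both sides of 0, among the targets between Tap1 at 1.27 and Ddb2 at -1.39 in the Jmjd2b knockdown.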

How the data were processed

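Groups and replicate numbers came from the sample titles. Biotinylated cRNA was made from total RNA and hybridised to 1-colour arrays, per the labels' protocols. The files hold deposited intensity values, linear, with 1 value for each probe set. The authors' probe summary, background correction and array scaling were not stated in the sources used here.

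Of 45101 probe sets, 34945 had exactly 1 symbol in the platform annotation, 932 had several, 9160 had no listed symbol and 64 were array controls. Gene identifiers of 34741 matched RefSeq genes (GRCm38.p6), and 0 symbols needed an update. Values became log2(intensity + 16). For each of 18193 genes the probe set of highest mean log2 value was taken, with no further normalization and no filter. Group means of all 8 arrays were fitted in limma 3.58.1 (R 4.3.3) with a trend, and two-sided p-values (threshold 0.05) were adjusted over all genes. The fit was tested on simulated data. Those data gave a gene the same spread in all groups and held no array types or sets of equal values, so the test does not cover them. Promoters were searched in Python 3.11.15 (pandas 2.3.3), and matplotlib 3.10.9 made the plots. The number of arrays limits the precision.

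The members and lists were chosen with earlier results of these data known. The text names all members, up to 6 called genes of each list with the smallest p in each comparison, and Cdkn1a, Bbc3, Pmaip1 and Mdm4. A search for genes that vary like Trp53 was not run, since Trp53 was not analysed here. Deviations from group means correlated over genes at 0.111 to 0.176 between same-numbered Jmjd2b knockdown and control arrays, and at -0.127 to 0.0164 between others. Same-numbered Jmjd2c knockdown arrays correlated at 0.0422 and 0.0640 with controls, and at -0.0596 and 0.141 with Jmjd2b knockdown arrays. The labels state no pairing, so the main fit did not pair the arrays, and a replicate block was an alternative.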

Additional observations from a re-analysis of the deposited data

How the results depend on the processing

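The count of members called in the Jmjd2b knockdown, 5, was 6 when the Jmjd2c knockdown was left out of the fit, 3 within the arrays floored at 1, 0 within the other arrays and 2 with the sets of equal values as a block (chosen after the data were seen), and 3 to 6 with 1 array left out. In the Jmjd2c knockdown the count of 2 became 1 with only the 2 groups in the fit, 0 with array type as a block, 0 within the arrays not floored and 0 with the sets as a block, and 0 to 4 with 1 array left out. Between the knockdowns it was 0, and 0 to 3 with 1 array left out. Fits within a type hold fewer arrays; the cause of the other losses was not tested. With the replicate block the counts were 5, 2 and 0, and no call of a member changed, while 1 of the 20 regulators was then called in the Jmjd2c knockdown. Over the 7 called changes of members, 122 of 152 values under the alternatives kept direction and call, 30 lost the call and 0 turned. Over all genes 4441 were called in the Jmjd2b knockdown (2624 to 5615 with 1 array left out), 1733 in the Jmjd2c knockdown (462 to 2919) and 85 between them (2 to 788).

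Values that turned direction under an alternative were as follows, none of them called at the turned value. Mdm2 in the Jmjd2b knockdown was -0.027 after quantile normalization, -0.0061 with centred arrays, -0.018 with array type as a block, -0.19 within the floored arrays, -0.11 with the sets as a block and -0.11 to 0.098 with 1 array left out. Mdm2 in the Jmjd2c knockdown was -0.0050 with the mean of its probe sets, -0.29 with the sets as a block and -0.043 to 0.21 with 1 array left out. Between the knockdowns Mdm2 was -0.089 with the mean of its probe sets, -0.18 with the sets as a block, -0.016 within the arrays not floored and -0.054 to 0.19 with 1 array left out. With the sets as a block, Ei24 (-0.064), Zmat3 (-0.14) and Cdkn1a (0.10) turned in the Jmjd2c knockdown. Within the arrays not floored, Ei24 (0.025), Bbc3 (0.088) and Pmaip1 (0.39) turned in the Jmjd2b knockdown, and Bbc3 (0.031, and 0.0018 with the replicate block) in the Jmjd2c knockdown. With 1 array left out, values in the Jmjd2b knockdown ran -0.10 to 0.0026 for Ei24, -0.14 to 0.053 for Bbc3 and -0.38 to 0.27 for Pmaip1. In the Jmjd2c knockdown they ran -0.21 to 0.40 for Zmat3, -0.094 to 0.57 for Ccng1, -0.14 to 0.067 for Bbc3, -0.28 to 0.19 for Cdkn1a and -1.87 to 0.66 for Pmaip1, and between the knockdowns -0.53 to 0.083 for Zmat3, -0.64 to 0.021 for Ccng1, -0.99 to 0.072 for Phlda3 and -0.033 to 0.43 for Sesn1.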
